A study of Mus musculus with 24 samples.

Results

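The sarcomere and muscle excitation genes are 41 genes for the contractile filaments of striated muscle, for the Z disc and desmin filaments that hold them in register, for the calcium release that starts a contraction, and for the energy supply of the fibre. They were chosen by name, from the mouse gene symbols that match the Ensembl identifiers of the count table, and all 41 were found among its 53700 genes. Levels did not enter that rule, but the genes were chosen with earlier results of these data known. RNA was sequenced from the retinal pigment epithelium (RPE), the pigmented cell layer behind the photoreceptors, of mice with or without the clock gene Bmal1 (Arntl) in that layer. The mice without it (RPE Bmal1 KO, here KO) and their controls (RPE Bmal1 WT, here WT) were all on C57BL/6, aged 12 to 16 weeks, and kept in 12 h of light and 12 h of dark. Per the study's methods both carried Bmal1 fl/fl and the Rpe-CRE transgenes (Vmd2-rtTA and TetO-cre, a Cre recombinase switched on by doxycycline in RPE cells), KO mice ate doxycycline food from postnatal day 60 to 74, and WT mice ate a control diet, whereas the sample labels give doxycycline food for every sample. RNA was taken 1, 7, 13 and 19 h after lights on (ZT1, ZT7, ZT13 and ZT19), from 3 mice per genotype and time, which makes 24 libraries in 8 groups. Each library pooled the 2 RPE isolates of 1 mouse, shaken off by sonication from a posterior segment that also held choroid and sclera.

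Muscle shortens when myosin of the thick filaments pulls on actin of the thin filaments inside the sarcomere, the repeat unit between neighbouring Z discs. Depolarization of the membrane is sensed by a calcium channel of the surface tubules, which opens the ryanodine receptor of the sarcoplasmic reticulum, and the calcium released binds troponin C and frees actin for myosin. Fast and slow fibres use different paralogs of the troponins, myosins and calcium handling proteins. All are known for striated muscle, and RPE cells have no sarcomeres. Because the samples were bulk tissue, fewer cells of a type and less RNA per cell cannot be told apart.

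Total counts ran from 2069527 to 10572612 per library, with a median of 7000040. Levels are given in CPM, counts relative to the library's total after scaling between libraries by trimmed mean of M values (TMM). The RPE was represented in every library, with 387 to 1901 CPM of Rgr and 38.3 to 282 CPM of Rpe65, both genes of the visual cycle. Arntl, the targeted gene, had 18.7 to 88.6 CPM in KO and 9.80 to 77.9 CPM in WT (log2 difference averaged over the time points 0.17, standard error 0.23, edgeR adjusted p = 0.959), and a count summed over all exons cannot tell an excised exon from a kept one. The study describes Cre activity mostly in RPE cells and a mosaic loss of BMAL1. By Western blot it reports significantly less BMAL1 protein in the RPE of KO mice, a measure unlike the RNA counts here. In 5 libraries genes of olfactory and vomeronasal receptors exceeded 500 CPM: the first replicates of KO at ZT1, ZT7 and ZT13 and of WT at ZT7 and ZT19. The share of mitochondrial transcripts was 3.86% to 41.7%.

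Promoter sequences were available in the RefSeq table (GRCm38.p6) for 29 of the 41 genes, with 34 starts in all. Those of the most abundant gene of each of 6 roles are shown because these genes carry most of the muscle counts. Each is the 250 bases before the annotated start, 5′ to 3′ on the gene's strand. Capitals mark matches on either strand to CANNTG (the E box that myogenic factors such as MyoD bind), to TATAAA, and to the consensus sites of MEF2 and of serum response factor (the CArG box).
Ttn (chr2:76982548-76982797, minus strand): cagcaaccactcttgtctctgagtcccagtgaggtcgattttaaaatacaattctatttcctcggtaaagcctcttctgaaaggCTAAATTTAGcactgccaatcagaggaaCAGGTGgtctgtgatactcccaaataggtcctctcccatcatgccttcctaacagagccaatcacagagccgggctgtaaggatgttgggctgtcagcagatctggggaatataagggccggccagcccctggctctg
Acta1 (chr8:123894776-123895025, minus strand): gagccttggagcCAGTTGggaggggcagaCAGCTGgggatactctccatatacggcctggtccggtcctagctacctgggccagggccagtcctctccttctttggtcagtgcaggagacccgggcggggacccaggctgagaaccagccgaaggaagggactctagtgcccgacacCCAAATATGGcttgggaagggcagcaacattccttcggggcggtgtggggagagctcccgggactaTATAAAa
Myl1 (chr1:66945057-66945306, minus strand): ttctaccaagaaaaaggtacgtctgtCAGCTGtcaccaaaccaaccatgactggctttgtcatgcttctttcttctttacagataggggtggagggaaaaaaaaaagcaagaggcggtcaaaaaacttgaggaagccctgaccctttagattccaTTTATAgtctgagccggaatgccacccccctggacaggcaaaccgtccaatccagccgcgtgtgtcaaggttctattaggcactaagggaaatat
Xirp2 (chr2:67445752-67446001, plus strand): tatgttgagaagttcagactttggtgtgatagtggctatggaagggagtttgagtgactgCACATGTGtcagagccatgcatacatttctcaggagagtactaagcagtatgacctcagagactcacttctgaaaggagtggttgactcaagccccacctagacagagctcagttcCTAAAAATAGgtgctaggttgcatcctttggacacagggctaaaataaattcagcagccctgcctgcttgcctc
Atp2a1 (chr7:126463074-126463323, minus strand): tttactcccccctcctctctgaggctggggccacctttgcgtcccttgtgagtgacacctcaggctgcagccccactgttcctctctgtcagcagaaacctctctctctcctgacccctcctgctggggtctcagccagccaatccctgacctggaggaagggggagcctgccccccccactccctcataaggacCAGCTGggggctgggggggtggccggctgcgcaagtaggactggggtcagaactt
Pygm (chr19:6384158-6384407, plus strand): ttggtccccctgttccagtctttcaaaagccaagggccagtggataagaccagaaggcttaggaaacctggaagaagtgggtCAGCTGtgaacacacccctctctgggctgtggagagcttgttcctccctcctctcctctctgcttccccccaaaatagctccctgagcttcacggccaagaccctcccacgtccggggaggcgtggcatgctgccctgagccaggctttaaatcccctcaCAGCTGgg

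CANNTG occurred in 29 of the 34 promoters (85.3%), against 66.2% of all 32851 promoters in the table. The MEF2 consensus occurred in 5 of 34 (14.7%), against 2.92% of all promoters, in those of Ttn, Xirp2, Casq2, Myoz2 and Pvalb. The CArG box occurred in 4 of 34 (11.8%), against 1.47% of all promoters, at Acta1, Ldb3 and Myom1. TATAAA occurred in 3 of 34 (8.82%), against 12.4% of all promoters. In the Xirp2 promoter 2 matches to CANNTG overlap each other. These matches describe the letters of the windows, and binding was not measured.

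The 41 genes were found at very different levels. Together they took 1.15% to 5.23% of the counts in KO libraries and 0.985% to 5.34% in WT libraries. Ttn alone, the giant protein that spans from the Z disc to the M band, made up 70.7% to 82.4% of these counts in KO and 70.3% to 78.9% in WT. Of the 41, 40 passed the filter on low counts and were tested. Tnnc2, the troponin C of fast fibres, did not pass, with 0 to 8 counts per library and 0 in 10 of 24 libraries. Cacng1 was at 0 in 1 library, and 39 genes had a count in every library.

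Levels between genes are comparable only per length of exon. On that scale Acta1, the actin of skeletal muscle thin filaments, led with a mean of 489 CPM per kb over the 24 libraries, followed by Atp2a1, the calcium pump of fast fibres, with 408 CPM per kb. Pvalb, a calcium buffer of fast fibres, had 245 CPM per kb, and Tcap, which caps titin at the Z disc, 205 CPM per kb. Ttn stood in the fifth place with 192 CPM per kb over its 116825 bases of exon. The lowest were Myom2, an M band protein, with 0.33 CPM per kb, Tnnc2 with 0.411 and Cacng1 with 1.67 CPM per kb. Acta1 may be undercounted where reads also fit the near-identical actins of heart and smooth muscle, since only reads that map once were counted.

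Of the 41 genes, 16 share exon bases with a gene on the opposite strand, 5 of them with a protein-coding gene. Tnnc2 shares 592 bases with Ube2c, Atp2a1 763 bases with Rabep2, Nrap 268 bases with Habp2, Myom1 207 bases with Myl12a and Mb 64 bases with Apol6. The library kit keeps strand, but whether the counting used it is not given in the sources used here. The counts of these genes are therefore uncertain over the shared bases, and the direction of that error is not known.

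The levels of the 40 genes varied together from library to library, in both genotypes. Their mean log2 CPM ran from 5.08 to 7.41 in KO libraries and from 5.05 to 7.75 in WT libraries. The lowest was replicate 2 of WT at ZT13 and the highest replicate 1 of WT at ZT1. The libraries fell into 2 clusters with no value between 6.26 and 7.02, a gap of 0.76 where the next largest gap was 0.25. Above the gap were 9 libraries, 3 of KO (replicate 3 at ZT7, ZT13 and ZT19) and 6 of WT (replicate 1 at ZT1, replicate 2 at ZT7, replicates 1 and 3 at ZT13, and replicates 2 and 3 at ZT19). Below it were 15 libraries, 9 of KO and 6 of WT, and among these were all 5 libraries rich in receptor counts. All 3 KO libraries at ZT1 were below it, whereas every other group had at least 1 library above it.

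**Figure D1:**
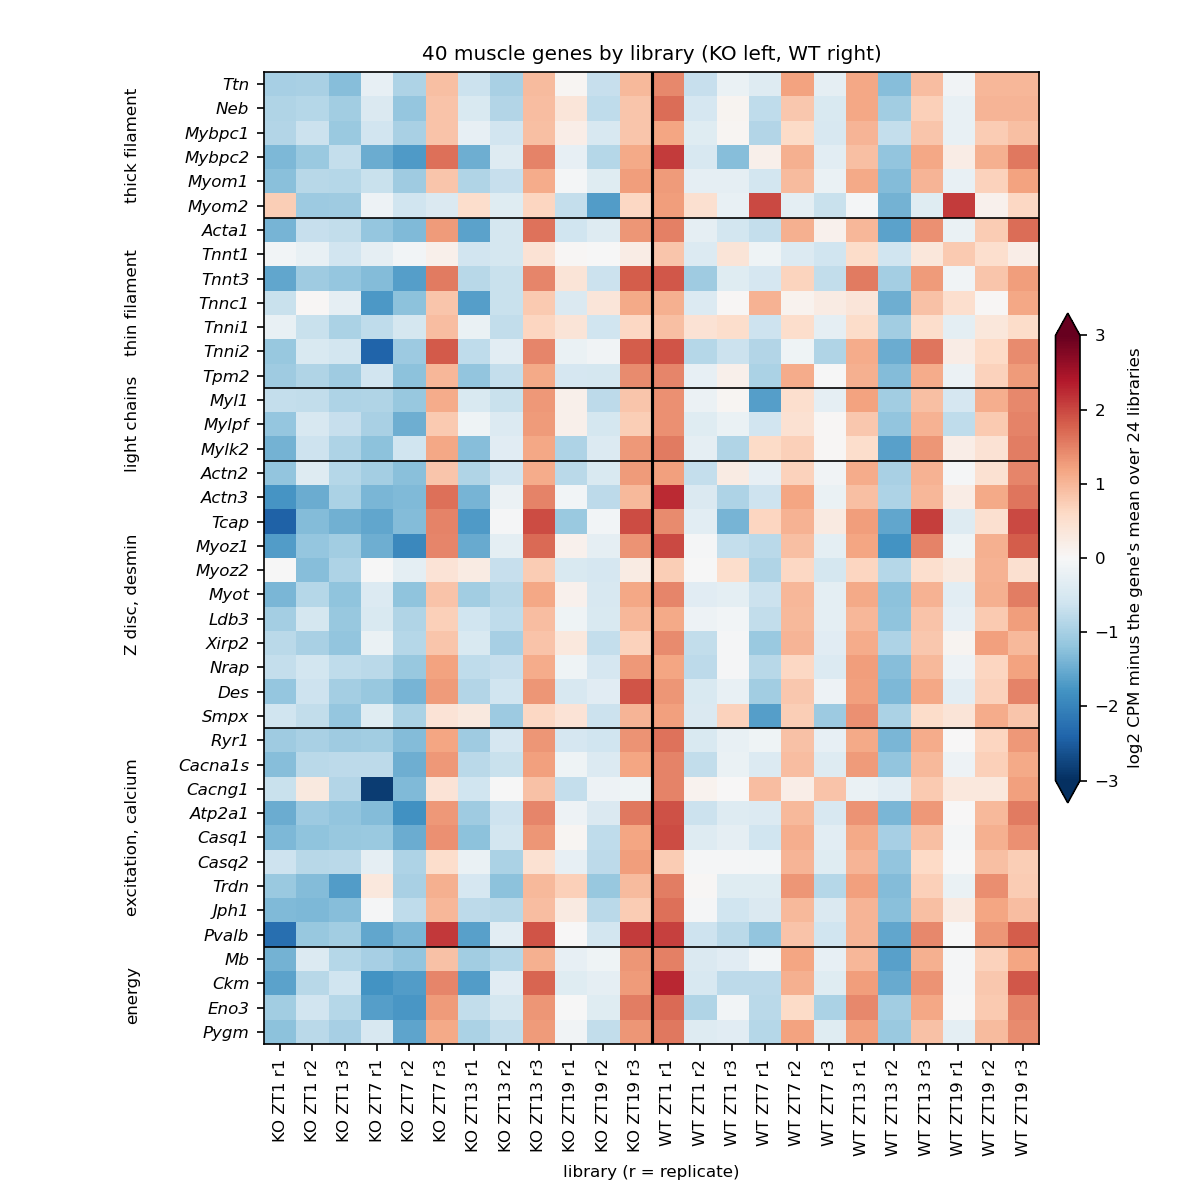
Heat map of 40 genes (rows, by role) in 24 libraries (columns, KO left of the black line and WT right of it). Colour is log2 CPM minus the gene's mean over the libraries, cut at 3 in either direction. The same 9 columns are red for nearly all rows, and Myom2 and Tnnt1 are the rows that follow them least.

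For 29 of the 40 genes every one of these 9 libraries was higher than every one of the other 15. The exceptions were Myom2, with 0 of the 9 above all others, Tnnt1 with 1, Cacng1 with 2, Tnnc1 with 3, Myoz2 with 5, Smpx with 6, Mylk2 with 7, and Tnni1, Tnni2, Tcap and Trdn with 8 each.  The grouping of libraries comes from the same values, so these counts describe it and test nothing.

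**Figure D2:**
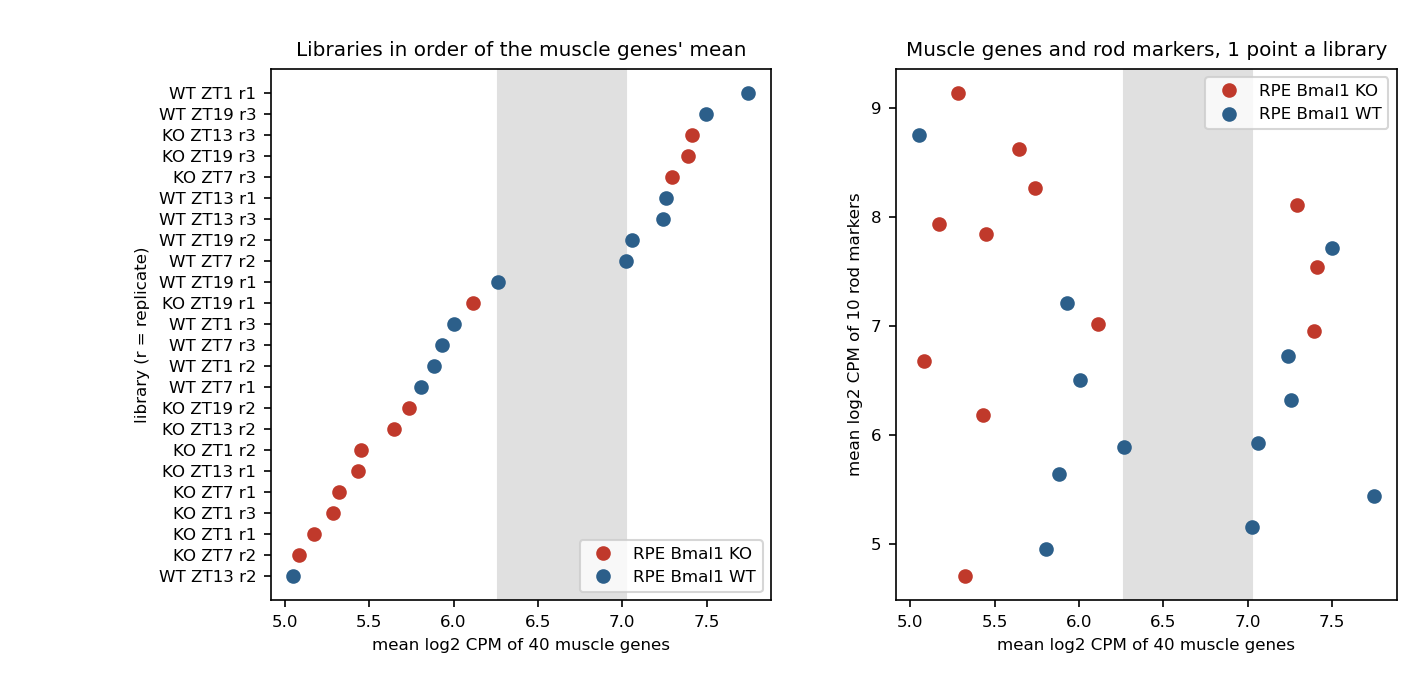
Left, mean log2 CPM of 40 muscle genes (x axis) in each library (y axis), in order of that mean. Right, the same mean (x axis) and the mean log2 CPM of 10 rod markers (y axis), 1 point a library. Grey marks the gap between 6.26 and 7.02, with 3 KO and 6 WT libraries to its right.

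Within the groups of 3 libraries the spread of these genes was wide. The SD of log2 CPM within groups had a median of 1.00 over the 40 genes, against 0.49 over the 24965 genes tested, and 39 of the 40 were above that median. Pvalb varied most, with an SD of 1.46, then Tcap with 1.43, Ckm, the creatine kinase of muscle, with 1.36 and Myoz1 with 1.32. The narrowest were Tnnt1, the troponin T of slow fibres, with 0.41, Myoz2 with 0.60 and Tnni1 with 0.64. From the lowest to the highest library Tnnt1 differed 2.91-fold, Ttn 6.58-fold, Atp2a1 13.4-fold and Tcap 23.0-fold.

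Among the thick filament, M band and giant protein genes, Ttn lies on chromosome 2, from 76703980 to 76982547 (mm10). Ttn had 9279.9, 9424 and 7660.2 CPM in KO libraries at ZT1, against 50434, 11451 and 16201 CPM in WT libraries, and at ZT7 15753, 9759.9 and 34817 CPM in KO and 14219, 43047 and 15345 CPM in WT. At ZT13 Ttn had 11796, 9495 and 35881 CPM in KO and 41499, 7675 and 35258 CPM in WT, and at ZT19 19419.7, 11554 and 36288 CPM in KO and 17102, 37144 and 37108 CPM in WT. Its KO libraries at ZT1 were all below the WT libraries, and at the other times the groups overlapped. The log2 difference was -0.71 (standard error 0.34, edgeR adjusted p = 0.787) averaged over the time points and -1.57 (standard error 0.70, edgeR adjusted p = 0.453) at ZT1. Neb, the ruler of thin filament length, had 270.5 to 1923 CPM over the libraries and a log2 difference of -1.65 at ZT1, with all KO libraries below all WT libraries. Mybpc1 and Mybpc2, the myosin binding C proteins of slow and fast fibres, had 84.6 to 417 CPM and 8.65 to 124 CPM. Myom1, which cross-links myosin in the M band, had 56.3 to 339 CPM. Myom2, which shares that role, had another order of libraries, with 0.516 to 3.96 CPM in KO and 0.677 to 10.5 CPM in WT. Its highest levels, 10.5 and 9.80 CPM, were in replicate 1 of WT at ZT19 and at ZT7, both rich in receptor counts and below the gap for the other genes.

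Among the thin filament genes, Acta1 lies on chromosome 8, from 123891769 to 123894751. Acta1 had 216, 350.3 and 340.0 CPM in KO libraries at ZT1, against 1618, 473 and 387 CPM in WT libraries, and at ZT7 254, 227 and 1386 CPM in KO and 344, 1189.6 and 623 CPM in WT. At ZT13 Acta1 had 188, 391 and 1757 CPM in KO and 1134, 187 and 1468 CPM in WT, and at ZT19 376, 434 and 1430.3 CPM in KO and 494, 958 and 1805 CPM in WT. The groups overlapped at ZT7, ZT13 and ZT19 but not at ZT1. Its log2 difference was -0.61 (standard error 0.43, edgeR adjusted p = 0.858) averaged and -1.45 (standard error 0.87, edgeR adjusted p = 0.607) at ZT1. Tpm2, a tropomyosin that covers the myosin sites of actin, had 126 to 861 CPM. All 3 KO libraries of Tpm2 at ZT1 were below all 3 WT libraries, with a log2 difference of -1.66.

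The troponins form a calcium switch of an inhibitory, a calcium binding and a tropomyosin binding subunit, each with a fast and a slow paralog. Tnni2 and Tnni1 encode the inhibitory subunit of fast and slow fibres. Tnni2 had 17.8, 29.1 and 26.9 CPM in KO libraries at ZT1, against 148, 21.8 and 25.4 CPM in WT libraries, and at ZT7 7.26, 18.5 and 142 CPM in KO and 21.4, 36.2 and 21 CPM in WT. At ZT13 Tnni2 had 23.1, 31.6 and 111 CPM in KO and 86.3, 14 and 121 CPM in WT, and at ZT19 34.4, 36.8 and 141 CPM in KO and 46.1, 60.2 and 106 CPM in WT. The groups of Tnni2 overlapped at each time. Tnni1 had 13.1, 9.6 and 7.76 CPM in KO libraries at ZT1, against 28.7, 20.6 and 22 CPM in WT libraries, and at ZT7 8.87, 10.6 and 29.1 CPM in KO and 9.8, 22.2 and 12.7 CPM in WT. At ZT13 Tnni1 had 13.4, 9.05 and 24.2 CPM in KO and 22.4, 7.27 and 22.1 CPM in WT, and at ZT19 19.9, 9.97 and 23.7 CPM in KO and 12.5, 19.5 and 22.4 CPM in WT. For Tnni1 the KO libraries at ZT1 lay below the WT libraries. The averaged log2 difference was -0.18 (standard error 0.45, edgeR adjusted p = 0.993) for Tnni2 and -0.33 (standard error 0.24, edgeR adjusted p = 0.865) for Tnni1. Per kb of exon Tnni2 exceeded Tnni1 in all 24 libraries, by a ratio of 1.97 to 14.2 (median 7.81) in KO and 2.55 to 13.1 (median 6.34) in WT.

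Tnnt3 and Tnnt1 encode the tropomyosin binding subunit of fast and slow fibres. Tnnt3 had 27, 38.4 and 35.8 CPM in KO libraries at ZT1, against 291, 37.9 and 62.4 CPM in WT libraries, and at ZT7 32.3, 25.4 and 237 CPM in KO and 57, 128 and 48.1 CPM in WT. At ZT13 Tnnt3 had 45, 50.4 and 223 CPM in KO and 238, 39.8 and 197 CPM in WT, and at ZT19 105, 51.4 and 282 CPM in KO and 74.2, 143 and 193 CPM in WT. The groups of Tnnt3 overlapped at all 4 times. Tnnt1 had 3.71, 3.37 and 2.59 CPM in KO libraries at ZT1, against 7.3, 2.92 and 5.28 CPM in WT libraries, and at ZT7 3.23, 3.71 and 4.43 CPM in KO and 3.56, 2.92 and 2.51 CPM in WT. At ZT13 Tnnt1 had 2.55, 2.65 and 5.41 CPM in KO and 5.93, 2.54 and 5.1 CPM in WT, and at ZT19 4.08, 3.95 and 4.69 CPM in KO and 7.02, 5.74 and 4.58 CPM in WT. Tnnt1 stayed between 2.51 and 7.3 CPM throughout. The averaged log2 difference was -0.52 (standard error 0.43, edgeR adjusted p = 0.90) for Tnnt3 and -0.26 (standard error 0.19, edgeR adjusted p = 0.866) for Tnnt1. The ratio of Tnnt3 to Tnnt1 per kb was 9.55 to 83.6 (median 21.9) in KO and 14.7 to 61.2 (median 30.7) in WT.

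Tnnc1 encodes the calcium binding subunit of slow fibres and of the heart, and Tnnc2 that of fast fibres. Tnnc1 had 1.98, 3.37 and 2.7 CPM in KO libraries at ZT1, against 7.17, 2.4 and 3.38 CPM in WT libraries, and at ZT7 0.806, 1.24 and 6.04 CPM in KO and 7.12, 3.59 and 3.95 CPM in WT. At ZT13 Tnnc1 had 0.849, 1.96 and 5.88 CPM in KO and 4.28, 1.01 and 6.27 CPM in WT, and at ZT19 2.35, 4.3 and 7.52 CPM in KO and 4.76, 3.36 and 7.7 CPM in WT. Its groups overlapped at all 4 times, and the averaged log2 difference was -0.44 (standard error 0.35, edgeR adjusted p = 0.888). Tnnc2 had 0, 0 and 0.118 CPM in KO libraries at ZT1, against 0.689, 0.172 and 0.587 CPM in WT libraries, and at ZT7 0, 0 and 0.101 CPM in KO and 1.78, 0 and 0 CPM in WT. At ZT13 Tnnc2 had 0.849, 0 and 0.285 CPM in KO and 1.15, 0 and 0.106 CPM in WT, and at ZT19 0, 0 and 0.489 CPM in KO and 0.501, 0.28 and 0.78 CPM in WT. The KO libraries of Tnnc2 were below the WT libraries at ZT1, and the groups overlapped at the other times, on 0 to 8 counts per library and with no test. The ratio of Tnnc2 to Tnnc1 per kb was 0 to 1.30 (median 0) in KO, where 1 of 12 libraries exceeded 1, and 0 to 0.350 (median 0.117) in WT. By these counts the fast paralog was the more abundant in 2 of the 3 pairs. It was the scarcer in the pair of Tnnc2 and Tnnc1 in 23 of 24 libraries. However, Tnnc2 shares 592 of its 800 exon bases with Ube2c on the opposite strand, and whether the counting used strand is not given. The level of Tnnc2 relative to Tnnc1 is therefore uncertain.

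**Figure D3:**
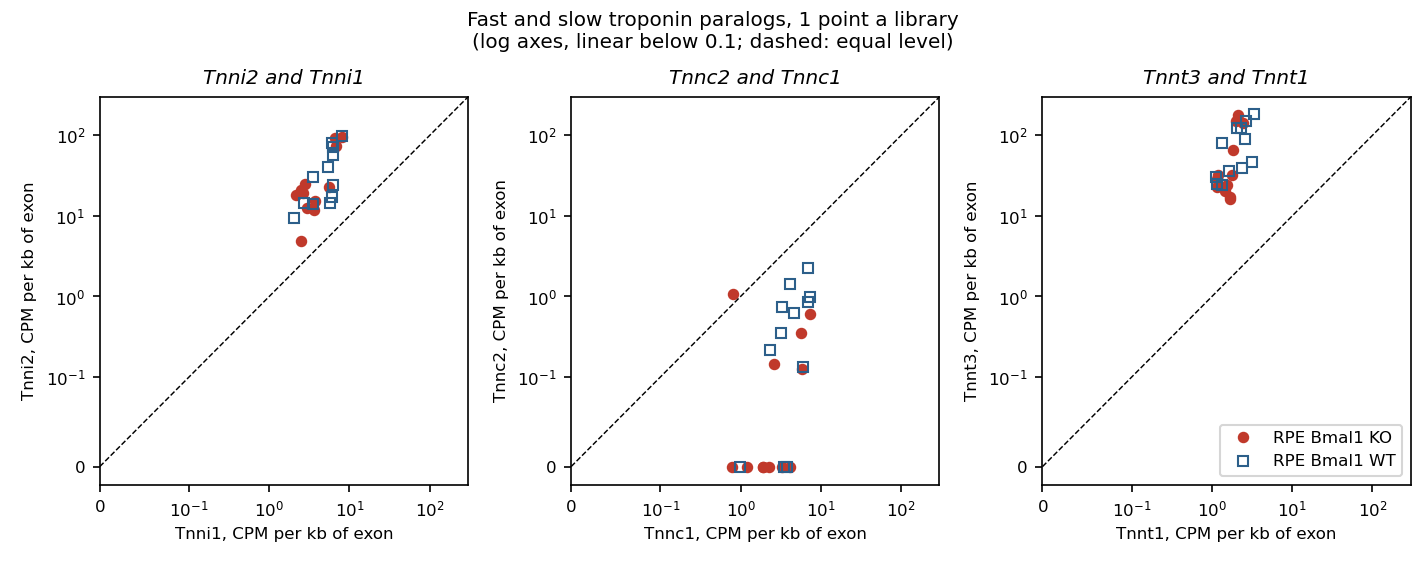
Fast paralog (y axis) against slow paralog (x axis) of 3 troponin pairs, in CPM per kb of exon, 1 point a library with KO filled and WT open. Axes are logarithmic above 0.1 and linear below, and the dashed line marks equal levels. Points lie above the line for Tnni2 and Tnnt3 in all 24 libraries, and below it for Tnnc2 in all but 1. The level of Tnnc2 is uncertain, since most of its exon bases are shared with Ube2c on the opposite strand.

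Of the myosin light chains, Myl1, the essential light chain of fast muscle, lies on chromosome 1, from 66924295 to 66945404. Myl1 had 114, 112 and 99 CPM in KO libraries at ZT1, against 482, 165 and 196 CPM in WT libraries, and at ZT7 100, 85.6 and 404 CPM in KO and 59.7, 267 and 155 CPM in WT. At ZT13 Myl1 had 136, 117 and 465 CPM in KO and 429, 90.8 and 349 CPM in WT, and at ZT19 207, 109 and 334 CPM in KO and 131, 402 and 507 CPM in WT. The KO libraries at ZT1, were below the WT libraries, and at ZT7 the order was mixed, with the lowest value of all in WT. The log2 difference was -0.51 (standard error 0.35, edgeR adjusted p = 0.854) averaged and -1.38 (standard error 0.71, edgeR adjusted p = 0.53) at ZT1. Mylpf, the regulatory light chain of fast muscle, had 10.1 to 79 CPM, and Mylk2, the kinase that phosphorylates it, 9.64 to 90.8 CPM.

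The Z disc, attachment and intermediate filament genes number 11. Xirp2, an actin binding protein of muscle attachments, was the most abundant of these by count and lies on chromosome 2, from 67446002 to 67526614. Xirp2 had 219.6, 195 and 169.8 CPM in KO libraries at ZT1, against 1026, 231 and 377 CPM in WT libraries, and at ZT7 335, 211 and 687 CPM in KO and 176, 773 and 301 CPM in WT. At ZT13 Xirp2 had 278, 193 and 696 CPM in KO and 835, 201 and 667 CPM in WT, and at ZT19 481, 232 and 621 CPM in KO and 404, 893 and 753 CPM in WT. KO libraries were below WT libraries at ZT1, and the groups overlapped at the other times. The log2 difference was -0.67 (standard error 0.31, edgeR adjusted p = 0.782) averaged and -1.48 (standard error 0.64, edgeR adjusted p = 0.439) at ZT1. Des, the desmin of muscle intermediate filaments, had 78.7 to 770.3 CPM, and Ldb3, which binds alpha-actinin at the Z disc, 83.1 to 455 CPM. Actn3, the alpha-actinin of fast fibres, had 9.4 to 156 CPM and a log2 difference at ZT1 of -2.38, the largest of the 40 genes in that comparison, against -1.24 for Actn2. Tcap had 23.2 to 534 CPM, and Myot, a Z disc protein that binds filamin, 51.4 to 391 CPM. Nrap, a protein related to nebulin, had 35.4 to 212 CPM. Myoz1 and Myoz2, the calcineurin binding proteins of fast and slow fibres, had 7.23 to 113 CPM and 2.73 to 14.6 CPM. Smpx, a small protein of striated muscle, had 5.34 to 45.5 CPM.

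Among the excitation and calcium genes, Atp2a1, which pumps calcium back into the reticulum of fast fibres, lies on chromosome 7, from 126445858 to 126463108. Atp2a1 had 369, 487 and 457 CPM in KO libraries at ZT1, against 3904, 666 and 796 CPM in WT libraries, and at ZT7 417, 292 and 2565 CPM in KO and 778, 2041 and 739 CPM in WT. At ZT13 Atp2a1 had 498, 673 and 2867 CPM in KO and 2633, 403 and 2562 CPM in WT, and at ZT19 938, 771 and 3091 CPM in KO and 1037, 2023 and 3034 CPM in WT. Its 9 highest libraries were those above the gap, and the genotypes were apart only at ZT1. The log2 difference was -0.74 (standard error 0.43, edgeR adjusted p = 0.818) averaged and -2.03 (standard error 0.89, edgeR adjusted p = 0.445) at ZT1. Ryr1, the calcium release channel, had 119.8 to 971 CPM. Cacna1s, the voltage sensor that opens it, had 19.1 to 150.1 CPM. Casq1 and Casq2, which store calcium in the reticulum of fast fibres and of slow fibres and the heart, had 35.5 to 391 CPM and 8.8 to 49.4 CPM. Trdn, which anchors them to the release channel, had 24 to 225 CPM, and Pvalb 33.6 to 713 CPM.

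Jph1 encodes junctophilin, which ties the reticulum to the surface tubules, and had the smallest p at ZT1 of the 40 genes. Jph1 had 22.3, 22.1 and 23.2 CPM in KO libraries at ZT1, against 176, 54.4 and 37 CPM in WT libraries, and at ZT7 54.8, 33.2 and 113 CPM in KO and 41.9, 111 and 41.9 CPM in WT. At ZT13 Jph1 had 32.5, 31.4 and 106 CPM in KO and 114, 23.5 and 106 CPM in WT, and at ZT19 67.8, 32.2 and 95.5 CPM in KO and 67.9, 127 and 108 CPM in WT. The 3 KO libraries at ZT1 were close to each other and below all WT libraries. The log2 difference was -1.99 (standard error 0.66, edgeR adjusted p = 0.343) at ZT1, with an unadjusted p of 0.00638, and -0.77 (standard error 0.32, edgeR adjusted p = 0.755) averaged. Cacng1, the gamma subunit of the muscle calcium channel, had the smallest p of the 40 in the averaged comparison. Cacng1 had 0.989, 2.21 and 0.823 CPM in KO libraries at ZT1, against 5.37, 1.89 and 1.76 CPM in WT libraries, and at ZT7 0, 0.529 and 2.42 CPM in KO and 3.56, 2.02 and 3.35 CPM in WT. At ZT13 Cacng1 had 1.06, 1.71 and 3.41 CPM in KO and 1.48, 1.35 and 3.19 CPM in WT, and at ZT19 0.942, 1.55 and 1.56 CPM in KO and 2.26, 2.24 and 4.48 CPM in WT. These levels rest on 0 to 46 counts per library. KO libraries were below WT libraries at ZT19, and the groups overlapped at ZT1, ZT7 and ZT13. The averaged log2 difference of Cacng1 was -0.87 (standard error 0.33, edgeR adjusted p = 0.755), with an unadjusted p of 0.0154.

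Of the energy and oxygen genes, Pygm, the glycogen phosphorylase of muscle, lies on chromosome 19, from 6384399 to 6398459. Pygm had 132, 176 and 155 CPM in KO libraries at ZT1, against 936, 238 and 247 CPM in WT libraries, and at ZT7 224, 103 and 679 CPM in KO and 173, 713 and 241 CPM in WT. At ZT13 Pygm had 160.1, 189 and 749 CPM in KO and 735, 144 and 575 CPM in WT, and at ZT19 289, 185 and 779.8 CPM in KO and 254, 600.1 and 827 CPM in WT. Again the groups were apart at ZT1 and overlapped later. The log2 difference was -0.65 (standard error 0.39, edgeR adjusted p = 0.821) averaged and -1.62 (standard error 0.79, edgeR adjusted p = 0.508) at ZT1. Mb, the oxygen binding myoglobin, had 44.3 to 396 CPM, Ckm 27.4 to 461 CPM and Eno3, the enolase of muscle, 29.6 to 325 CPM.

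**Figure D4:**
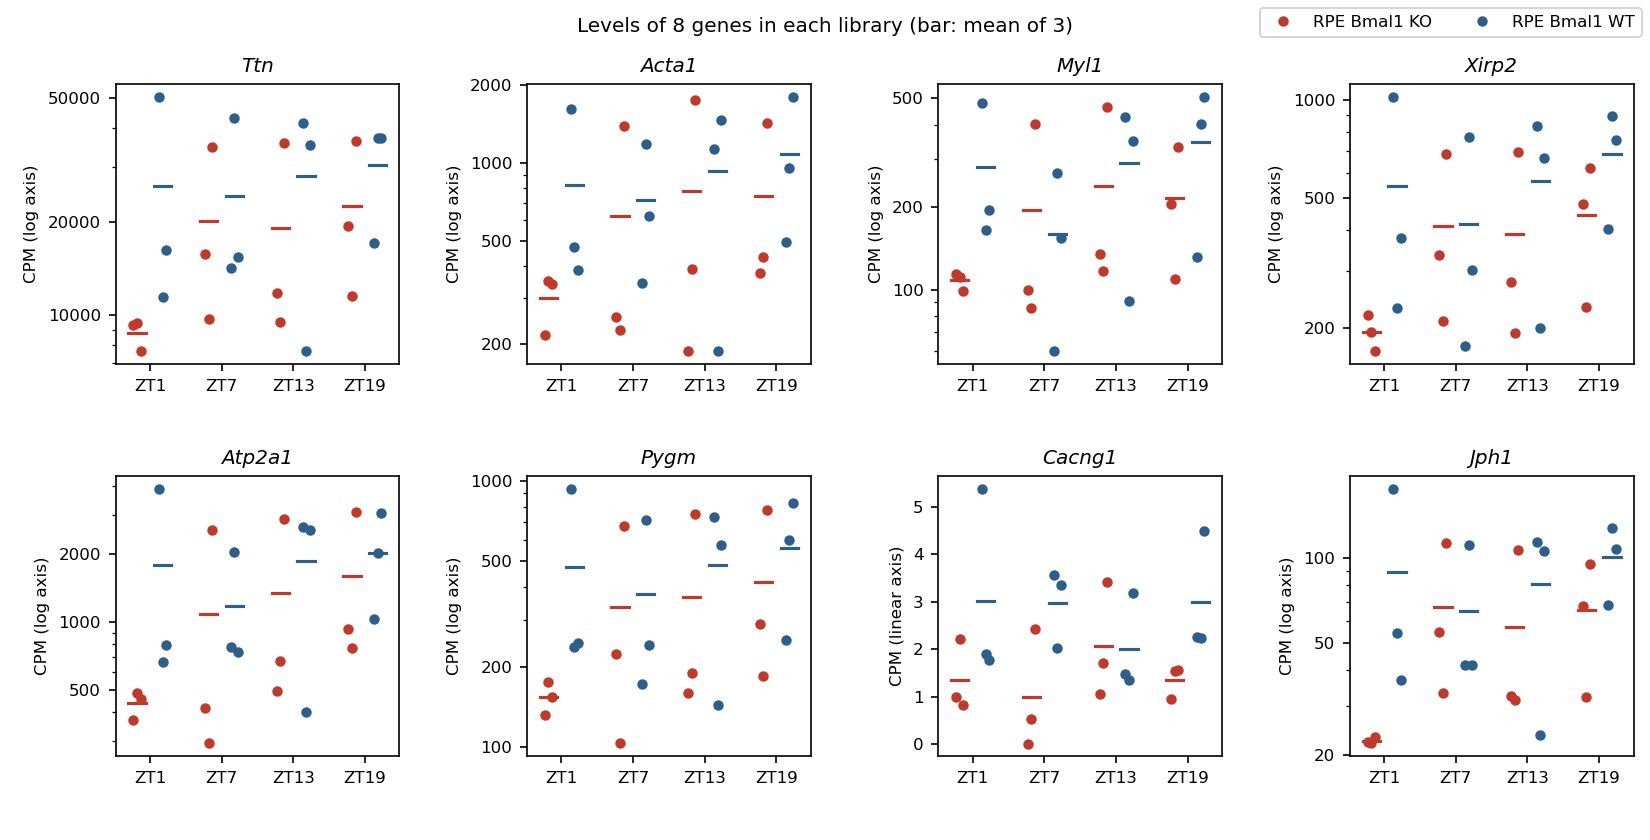
CPM of 8 genes in each library, by time point, KO left of WT, with a bar at the mean of 3. Axes are logarithmic except that of Cacng1, which has a library at 0. At ZT1 the 3 KO points lie below the 3 WT points for all but Cacng1, and replicate 1 of WT at ZT1 is the highest WT point of its group in all 8.

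Whether loss of Bmal1 from the RPE moved these genes was asked first over all 4 times. No gene of the set passed the threshold (edgeR, adjusted p under 0.05), nor did any of the 24965 genes tested (0%), and DESeq2 and limma-trend called 0 of the set as well. All 40 had a negative difference, with a median of -0.63 (-0.87 to -0.18), while the median over all genes was -0.04 and 58.5% of them were negative. At an unadjusted p under 0.05 with KO lower there were 5 of 40 (Cacng1, Jph1, Xirp2, Myoz2 and Casq2), against 2.73% of all genes. Without replicate 1 of WT at ZT1 the median was -0.41 and 1 gene had such a p, and without replicate 3 of KO at ZT7 the median was -0.85 and 35 genes did. With library size alone as the scaling, which moved the median of all genes to 0.16, the median was -0.40, 39 of 40 were negative and 0 had such a p. Without every library numbered 1, 35 of 40 were negative, with a median of -0.23. The share of all genes at such a p was not computed for these altered fits, so their counts have no background. In the same averaged comparison 9 of 10 rod markers had an unadjusted p under 0.05 with KO higher (median log2 difference 1.04). They summed to 614 to 13204 CPM in KO and 649 to 12455 CPM in WT, and their part in the result was not tested. The share of all genes with KO higher at such a p was not computed.

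At ZT1, 1 h after lights on, the differences were widest. All 40 were negative, with a median of -1.48 (-2.38 to -0.67) against -0.02 over all genes, of which 51.3% were negative. None passed the adjusted threshold (0% of all genes, edgeR), nor by DESeq2 or limma-trend, and 19 of 40 had an unadjusted p under 0.05 with KO lower, against 3.94% of all genes. In 25 of 40 every KO library was below every WT library, against 10.9% of all genes, and in 0 was every KO library above. The 15 without such a separation were Mybpc2, Myom2, Tnnt1, Tnnt3, Tnnc1, Tnni2, Mylk2, Actn2, Tcap, Myoz2, Nrap, Cacng1, Mb, Ckm and Eno3. The mean log2 CPM of the 40 genes was 5.30 ± 0.14 in KO and 6.55 ± 1.04 in WT (SD, n = 3 each).

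Replicate 1 of WT at ZT1 carried much of this difference. It was the highest of all 24 libraries for 24 of the 40 genes. Without it the median at ZT1 was -0.66 and 0 of 40 genes had an unadjusted p under 0.05 with KO lower. The share of all genes at such a p was not computed for that fit. Without that library Tnni2 had a difference of 0.069, and the other named genes stayed negative. In a fit of the 6 libraries of ZT1 alone, 3 genes passed the adjusted threshold of edgeR, among 820 of all genes: Tnni1 (log2 difference -1.21, standard error 0.25, adjusted p = 0.0273), Trdn (-1.98, standard error 0.43, adjusted p = 0.0321) and Tpm2 (-1.62, standard error 0.38, adjusted p = 0.0411). Library size alone moved the median of all genes at ZT1 to 0.30 and that of the 40 genes to -1.01, with all 40 negative.

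Other cell types also differed between these 6 libraries. Rod markers summed to 5306 to 13204 CPM in KO and 1016 to 2625 CPM in WT at ZT1, and 10 of 10 had an unadjusted p under 0.05 with KO higher, Sag, the arrestin of rods, by a log2 difference of 2.76. None of the 10 was at 0 in any library. Lens markers summed to 47.2, 8162 and 5176 CPM in KO and to 60.2, 117 and 355 CPM in WT, with 8 of 9 tested higher in KO at an unadjusted p under 0.05. Of the lens list Lim2 was too low to test and at 0 in 14 libraries, and Crybb2 was at 0 in 1. RPE markers summed to 2632 to 3022 CPM in KO and 3278 to 3495 CPM in WT, with 0 of 12 at such a p. Smooth muscle genes summed to 462 to 597 CPM in KO and 622 to 922 CPM in WT, with 0 of 10. Schwann cell markers summed to 1804 to 2654 CPM in KO and 2623 to 4595 CPM in WT, endothelial markers to 359.6 to 453 CPM in KO and 385 to 516 CPM in WT, macrophage markers to 182 to 232 CPM in KO and 202 to 228 CPM in WT, and fibroblast and sclera markers to 1889.8 to 3021 CPM in KO and 1536 to 4051 CPM in WT. Of these 4 lists 1 gene had an unadjusted p under 0.05 at ZT1, an endothelial one lower in KO. For the rod and lens markers, the share of all genes with KO higher at such a p was not computed. The part of other cells in the result was not tested.

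At ZT7 the 40 genes were divided. There were 24 negative and 16 positive differences, with a median of -0.04 against -0.05 over all genes, 0 with an unadjusted p under 0.05 and KO lower (2.59% of all genes) and 0 past the adjusted threshold of edgeR (0% of all genes), the smallest unadjusted p being 0.0934 for Cacng1. KO libraries lay below all WT libraries in 0 of 40 genes, against 3.83% of all genes. Direction at ZT7 followed single libraries, since the median was -1.23 without replicate 3 of KO and 0.59 without replicate 2 of WT, both of them above the gap. With library size alone, which moved the median of all genes at ZT7 to 0.28, 7 were negative and 33 positive. With the replicate number added to the model as a block, 37 of 40 were negative, with a median of -0.53. In the main fit Pvalb and Tnni2 had the most positive differences, at 0.79 and 1.11.

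At ZT13 there were 38 negative and 2 positive differences, with a median of -0.42 against -0.02 over all genes. Of the 40, 0 passed the adjusted threshold of edgeR (0% of all genes), 0 had an unadjusted p under 0.05 with KO lower (0.272%) and 0 were apart with KO below WT (1.67%). Without every library numbered 1 only 1 of 40 was negative, with a median of 0.22. The median was -1.37 without replicate 3 of KO at ZT13 and -0.066 without replicate 1. At ZT19 there were 39 negative differences and 1 positive, with a median of -0.42 against -0.04 over all genes. Of the 40, 0 passed the adjusted threshold (0% of all genes), Myom2 alone had an unadjusted p under 0.05 with KO lower, at 0.0476 (2.14% of all genes), and Myoz2 and Cacng1 were apart with KO below WT (2.97%). The median was -1.08 without replicate 3 of KO at ZT19 and -0.01 without replicate 3 of WT.

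**Figure D5:**
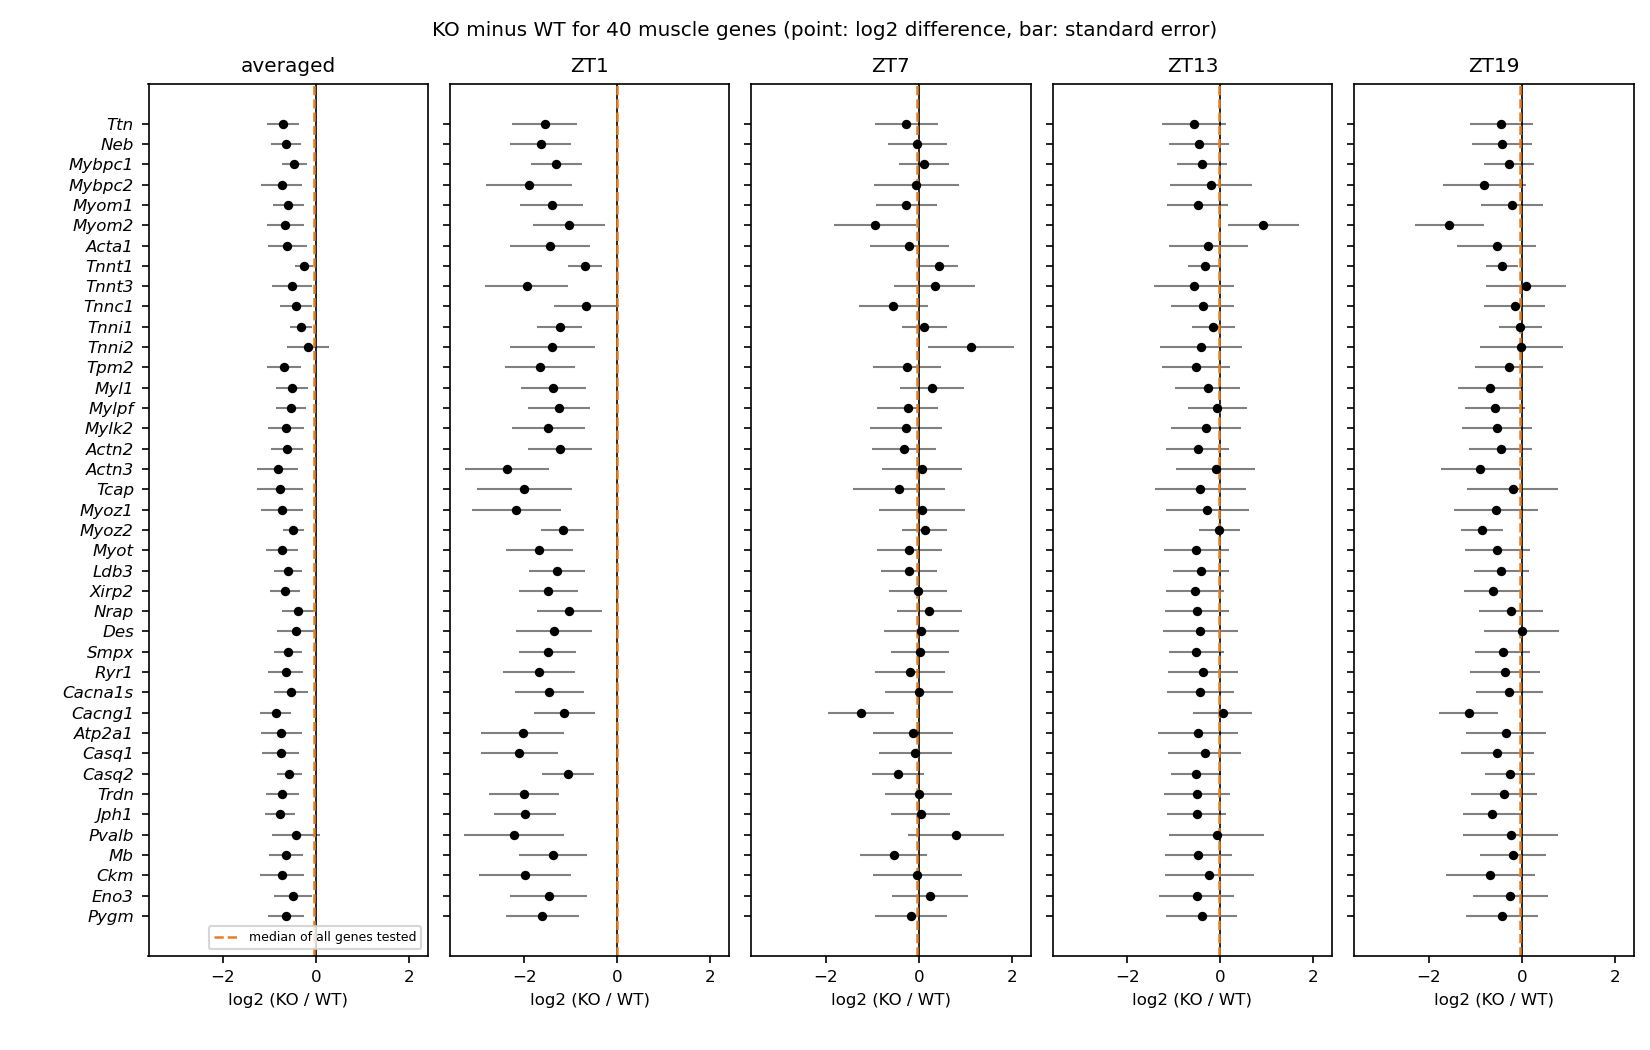
Log2 difference, KO minus WT (x axis), of 40 genes (y axis), averaged and at each time point, with bars of 1 standard error from edgeR. The dashed line is the median of all genes tested. The points lie left of 0 for all 40 genes in the averaged comparison and at ZT1, and on both sides at ZT7.

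Time of day was tested within each genotype and over both. In the 12 KO libraries 0 of 40 genes passed the adjusted threshold of edgeR (0.00801% of all genes) and 0 had an unadjusted p under 0.05 (2.06%), with the smallest at 0.0545 for Jph1. In the 12 WT libraries 0 passed (0% of all genes) and 0 had such a p (2.47%), with the smallest at 0.175 for Myom2. For genotype by time, the test of whether the difference between the genotypes changed over the day, 0 passed (0%) and 0 had such a p (2.06%), and the smallest was 0.142 for Myom2. Over both genotypes 0 passed (0.0361%) and 0 had such a p (3.11%), with the smallest at 0.176 for Tcap. DESeq2 and limma-trend also called 0 of the 40 in these tests of time. The mean log2 CPM of the 40 genes was 5.30 ± 0.14 at ZT1, 5.90 ± 1.21 at ZT7, 6.16 ± 1.09 at ZT13 and 6.41 ± 0.87 at ZT19 in KO (SD, n = 3 each). In WT it was 6.55 ± 1.04, 6.25 ± 0.67, 6.52 ± 1.27 and 6.94 ± 0.63 at the same times.

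Fibre type was compared by lists of genes within the set. Of the 12 fast fibre genes of the set 11 were tested, and their median log2 difference at ZT1 was -1.95, with 5 at an unadjusted p under 0.05 and KO lower. Of the 6 slow fibre genes the median was -1.12, with 3 at such a p, against 3.94% of all genes. Averaged over the times the medians were -0.65 for fast and -0.45 for slow fibre genes. Summed levels ran from 578 to 5102 CPM in KO and 713 to 6453 CPM in WT for fast fibre genes, and from 113 to 420.1 CPM in KO and 136 to 507 CPM in WT for slow fibre genes.

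Muscle genes outside the set, from lists written by hand, were also mostly lower in KO in mean. All 8 striated muscle myosin heavy chains were negative in the averaged comparison (median -0.56), with 0 past the adjusted threshold and 1 at an unadjusted p under 0.05, Myh4. At ZT1, 7 of 8 were negative, with a median of -1.19. Myh4, the myosin of the fastest limb fibres, had 59.1 to 1906 CPM and Myh1, another fast myosin, 89.1 to 881 CPM. Myh13, the myosin known from extraocular muscle, had 4.70 to 389 CPM and a log2 difference at ZT1 of -3.52 (unadjusted p = 0.0317, edgeR adjusted p = 0.44), and was named after its values were seen. Of 46 other skeletal muscle genes all 46 were negative in the averaged comparison (median -0.51), 10 at an unadjusted p under 0.05 and 0 past the adjusted threshold. Srl, a calcium binding protein of the reticulum, had 84.3 to 758 CPM, and Pfkm, the phosphofructokinase of muscle, 66.3 to 508 CPM.

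Heart and smooth muscle genes were not alike in this. Of 12 cardiac genes 9 were tested, with 6 negative and 3 positive differences in the averaged comparison and a median of -0.23. Actc1, the cardiac actin that skeletal muscle also makes, had 27.0 to 449 CPM and a log2 difference at ZT1 of -2.32. Ryr2, the calcium release channel of heart and neurons, went the other way, with a log2 difference of 2.01 at ZT1 (unadjusted p = 0.00293, edgeR adjusted p = 0.343), and was also named after its values were seen. Myl7 was at 0 in 9 libraries, Nppa in 14 and Nppb in 7, and Tnni3 in 2. Of 10 smooth muscle genes 7 were negative and 3 positive, with a median of -0.04. Their mean log2 CPM ran from 3.89 to 4.67 in KO and 3.99 to 4.63 in WT.

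Outside the set, the 10 genes with the closest pattern to the mean of the 40 genes, among 14860 genes averaging 5 CPM or more, were Scn4a, Hfe2, Fitm1, Ndrg2, Scn4b, Lrrc20, Clcn1, Synpo2, Ckmt2 and Tmem38a. They were ranked by Pearson's r of their log2 CPM with that mean over all 24 libraries, which was 0.977 to 0.981. The same r was 0.85 to 0.94 over the 15 libraries below the gap and 0.46 to 0.82 over the 9 above it. Synpo2 is on the list of smooth muscle genes, and Scn4a, Clcn1 and Ckmt2 are on that of other skeletal muscle genes. Scn4a encodes the sodium channel of the muscle action potential and had 34.2 to 267 CPM. Clcn1, the chloride channel that quiets the muscle membrane, had 14.6 to 99.6 CPM. The libraries share their depth and scaling between genes, so these values are a description. The genes of the set themselves correlated with their common mean at a median r of 0.76 over the 15 libraries and 0.73 over the 9, with Atp2a1 the closest (0.96 and 0.98) and Myoz2 (0.27 and -0.23) and Casq2 (0.70 and -0.26) among the most distant.

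Because the libraries fell into 2 clusters, correlations between genes were computed within the 15 libraries below the gap and the 9 above it, two-sided, for 14 pairs, with adjustment over the pairs. By Pearson's r 6 of the 14 pairs passed the adjusted threshold of 0.05 below the gap and 2 above it. For Ttn and Neb, both giant proteins, r was 0.87 below the gap (permutation p = 1e-05, adjusted 7e-05) with Spearman coefficient 0.91 (permutation p = 1e-05), and 0.83 without the 2 libraries farthest from the median of Ttn. Above the gap Ttn and Neb had r 0.81 (exact permutation p = 0.0212, adjusted 0.0685) with Spearman coefficient 0.53 (exact permutation p = 0.148), and 0.85 without the 2 farthest. The smallest p that 100000 permutations can give is 1e-05. For Acta1 and Ckm r was 0.90 below the gap (permutation p = 5e-05, adjusted 0.000233) with Spearman coefficient 0.85 (permutation p = 0.00018), and 0.89 without the 2 libraries farthest from the median of Acta1. Above the gap Acta1 and Ckm had r 0.85 (exact permutation p = 0.00389, adjusted 0.0272) with Spearman coefficient 0.88 (exact permutation p = 0.00308), and 0.74 without the 2 farthest. For Ryr1 and Cacna1s, the release channel and its voltage sensor, r was 0.86 below the gap (permutation p = 8e-05, adjusted 0.00028) with Spearman coefficient 0.85 (permutation p = 0.00011), and 0.80 without the 2 libraries farthest from the median of Ryr1. Above the gap Ryr1 and Cacna1s had r 0.90 (exact permutation p = 0.00167, adjusted 0.0233) with Spearman coefficient 0.73 (exact permutation p = 0.0311), and 0.63 without the 2 farthest. Within each cluster r was thus positive for these 3 pairs, with the adjusted p over 0.05 for Ttn and Neb above the gap. The clusters were made from the mean of the same genes, and libraries share their scaling between genes. These values are therefore a description of the libraries.

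For Tnni2 and Tnni1 r was 0.27 below the gap (permutation p = 0.339, adjusted 0.432) with Spearman coefficient 0.18 (permutation p = 0.525), and 0.16 without the 2 libraries farthest from the median of Tnni2. Above the gap Tnni2 and Tnni1 had r 0.64 (exact permutation p = 0.0633, adjusted 0.148) with Spearman coefficient 0.75 (exact permutation p = 0.0255), and 0.72 without the 2 farthest. The fast and slow paralogs of troponin I thus had no correlation past the adjusted threshold within either cluster. Over all 24 libraries, where the step between the clusters enters, Pearson's r was 0.76 (permutation p = 4e-05, adjusted 9.33e-05). The clusters were cut on a mean that includes both genes, which narrows their range. The values within clusters therefore cannot show that these paralogs vary apart. For Ttn and Rpe65 r was -0.03 below the gap (permutation p = 0.913, adjusted 0.913) with Spearman coefficient 0.11 (permutation p = 0.696), and -0.23 without the 2 libraries farthest from the median of Ttn. Above the gap Ttn and Rpe65 had r -0.07 (exact permutation p = 0.833, adjusted 0.833) with Spearman coefficient 0.12 (exact permutation p = 0.776), and -0.23 without the 2 farthest. Libraries of both genotypes and all times entered these correlations.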

How the data were processed

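RNA-seq of RPE samples from 24 mice (12 KO, 12 WT) gave a table of raw read counts per gene, deposited by the authors. Libraries made with a stranded total RNA kit after ribosomal RNA depletion were aligned by the authors to mm10 with Bowtie2, and uniquely mapped reads were counted with HTSeq (0.9.1). The Bowtie2 version is 2.3.4 in the submitters' processing notes, and the study's methods name another. Columns were assigned by their names, cont to WT and dox to KO, as in the methods, while the sample labels give doxycycline for all mice. The 11 columns that match no sample were not used. No pair of libraries held identical values.

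Gene names, coordinates and exon lengths came from GENCODE M21 (GRCm38/mm10), which matched 52147 of 53700 identifiers and left 1553 unmatched. Genes were filtered with a minimum count of 10 over the 8 groups, which left 24965. Differences between KO and WT, averaged and at each time, effects of time and genotype by time were tested with the quasi-likelihood F test of edgeR 4.0.16 (R 4.3.3) on all 24 libraries (12 for time within a genotype), adjusted by Benjamini-Hochberg over all genes tested, with a threshold of 0.05. The code was tested on simulated data. Log2 CPM used a prior count of 2. DESeq2 1.42.0 and limma-trend (limma 3.58.1), other scalings and filters, a replicate block and left out libraries were alternatives. Differences were tested against the spread between libraries, each from 1 mouse. Genes described in full are the most abundant by mean CPM of each role, the 3 with the smallest p in the averaged comparison, and the 3 troponin pairs; of other lists, the most abundant genes are examples. Correlations were taken within the clusters of libraries, a choice made after the levels were seen. The genes, the lists and the choice of tests were made with earlier results of these data known. Of the 14 correlation pairs 5 are described singly, and some genes of the lists are not reported here.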

Additional observations from a re-analysis of the deposited data

How the results depend on the processing

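Of the set, 0 genes passed the adjusted threshold (edgeR, DESeq2 or limma-trend) in the 9 comparisons under every alternative run, with 2 exceptions: 3 at ZT1 in the fit of the 6 libraries of ZT1, and 1 (Tnni2) for time in WT with no filter on low counts, where 789 of 48399 genes passed. The number with an unadjusted p under 0.05 and KO lower in the averaged comparison (5) was 3 with median-of-ratios scaling, 0 with library size alone, 2 with scaling without muscle and mitochondrial genes, 18 with no filter, 1 without the 5 receptor-rich libraries, 0 without every library numbered 1, and 1 to 35 when single libraries were left out. At ZT1 (19) it was 4 with library size alone, 8 with limma-trend, 34 with no filter, 8 without the receptor-rich libraries, 1 without every library numbered 1, 36 in the fit of ZT1 alone, and 0 to 31 when single libraries were left out. Adding a replicate block made it 28 averaged and 29 at ZT1. The share of all genes at an unadjusted p under 0.05 was not computed for these alternatives. Their counts therefore cannot be set against all genes. Deviations of same-numbered samples correlated at a median r of 0.165 (84 pairs, -0.42 to 0.69, 45 over 0.1), against -0.053 for other numbers (168 pairs, 54 over 0.1). Not every same-numbered pair exceeded 0.1 and no source ties a number to a shared litter or day, so the block was kept as an alternative. With the block the median difference at ZT7 was -0.53, with 37 of 40 genes negative. The median difference ranged from -1.23 to 0.59 at ZT7 and from -1.37 to -0.066 at ZT13 when single libraries were left out. Without every library numbered 1 the averaged difference was 0.48 for Tnni2, 0.052 for Tnnc1 and 0.092 for Tnnt3, and at ZT1 it was 0.24 for Tnni2 and 0.0562 for Tnnc1. Tnni2 also turned to 0.067 averaged with library size alone, and ranged from -0.68 to 0.19 averaged and -1.79 to 0.069 at ZT1 when single libraries were left out. The cause was not tested. Fewer libraries entered the fits that left libraries out, whereas with library size alone only the scaling changed. Depth limits the values of Tnnc2 (0 to 8 counts) and Cacng1 (0 to 46 counts).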
